A study of Mus musculus with 10 samples.

Results

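The genes described here are 34 named genes of cholesterol and fatty acid synthesis, with the SREBP system that controls them. They were chosen by name, and each was read through the probe set (a group of array probes for 1 transcript) that the annotation gives to that symbol alone, taking the one with the highest mean over the 10 arrays where a symbol had several. Of the 34 genes, 33 had such a probe set, out of 18194 symbols on the array, and all 33 were among the 17204 genes tested. Acat2 had no probe set of its own symbol alone and was not analysed here.

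The arrays measured RNA of sorted splenic B cells in 3 groups on the Balb/c background. Naive B cells came from mice that had not been immunized (n = 4). Germinal centre (GC) B cells, the dividing B cells that mutate and select their antibodies during a response, came from VH186.2-Tg JH KO mice (called B1-8 below, n = 3) and V23-Tg JH KO mice (V23, n = 3). Both GC lines carry an immunoglobulin heavy chain transgene and a deletion of the JH segments that cells need to build their own heavy chain, both received 50 µg NP-CGG in alum, and both were sorted at day 14 as λ+ PNA+ B220+ cells. The labels name neither the transgene nor the JH deletion for the naive mice, so GC state, immunization, genotype and sort gate cannot be told apart in a comparison with naive cells. Ages are not given in the labels, and nothing there says that replicates are separate animals, so the p-values measure the spread between these samples, which may be technical. RNA of mixed cells cannot tell fewer cells of a type from less RNA per cell.

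Cholesterol is built from acetyl-CoA through mevalonate to squalene, and then through lanosterol by a long series of sterol steps. Fatty acids are built from the same acetyl-CoA and are then elongated and desaturated. The transcription factors SREBP1 (Srebf1) and SREBP2 (Srebf2) are made as membrane proteins; Scap escorts them to the Golgi for cleavage when membrane sterol is low, and the Insig proteins hold Scap back when it is high. Cleaved SREBP2 acts mainly on genes of sterol synthesis and SREBP1 mainly on genes of fatty acid synthesis, while the oxysterol receptors LXR drive genes of cholesterol export.

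Most of these genes were higher in GC than in naive B cells of both lines. In GC B1-8 against naive, 24 of 33 rose and 2 fell (limma, adjusted p under 0.05), where 16.4% of all genes tested rose and 17.3% fell; either way the background was 33.7%. In GC V23 against naive, 26 of 33 rose and 4 fell, against a background of 18.2% and 19.7%, or 37.9% either way. The median log2 fold change of the 33 genes was 1.01 in B1-8 and 1.27 in V23, beside 0.05 and 0.06 over all genes tested. The arrays of the groups did not overlap for 24 genes with B1-8 higher and 3 with B1-8 lower (background 21.2% and 21.1%), and for 25 with V23 higher and 4 with V23 lower (background 21.8% and 22.6%). Called and at least 2-fold higher were 17 genes in B1-8 and 20 in V23. Changes of this size were common. The smallest, Nsdhl in B1-8 and Fasn in V23, ranked in the top 19.3% and 20.3% of all genes tested. That ranking is by size in either direction, called or not. The share of all genes called and at least 2-fold or 4-fold higher was not counted. Called and at least 4-fold higher were 5 in B1-8 (Sqle, Idi1, Cyp51, Fdps and Msmo1) and the same 5 with Fads1 in V23. Fads1, the smallest of these changes in V23, ranked in the top 4.77% by size.

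The same 24 genes rose in both lines, and Ebp and Elovl5 fell in both. A further 4 were called in V23 alone: Pmvk and Fads2 were higher, and Insig2 and Scap lower. For these 4 no difference between the lines was called: B1-8 minus V23 was −0.22 for Pmvk, −0.36 for Fads2, 0.13 for Insig2 and 0.02 for Scap. Under other settings B1-8 calls appeared for Pmvk and Scap (5 settings each), Fads2 (2) and Insig2 (1). Acly, Scd1 and Elovl1 were called in neither line, and no gene was called in opposite directions. Some other settings gave a lower call for Scd1 in V23. Both comparisons use the same 4 naive arrays. When arrays were centred on their medians, the all-gene median in V23 against naive moved from 0.06 to 0.19 and the share of higher calls from 48.0% (3127 higher, 3386 lower) to 60.1% (3828 higher, 2537 lower); 26 of the 33 genes were then higher and 1, Elovl5, was lower.

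**Figure D1:**
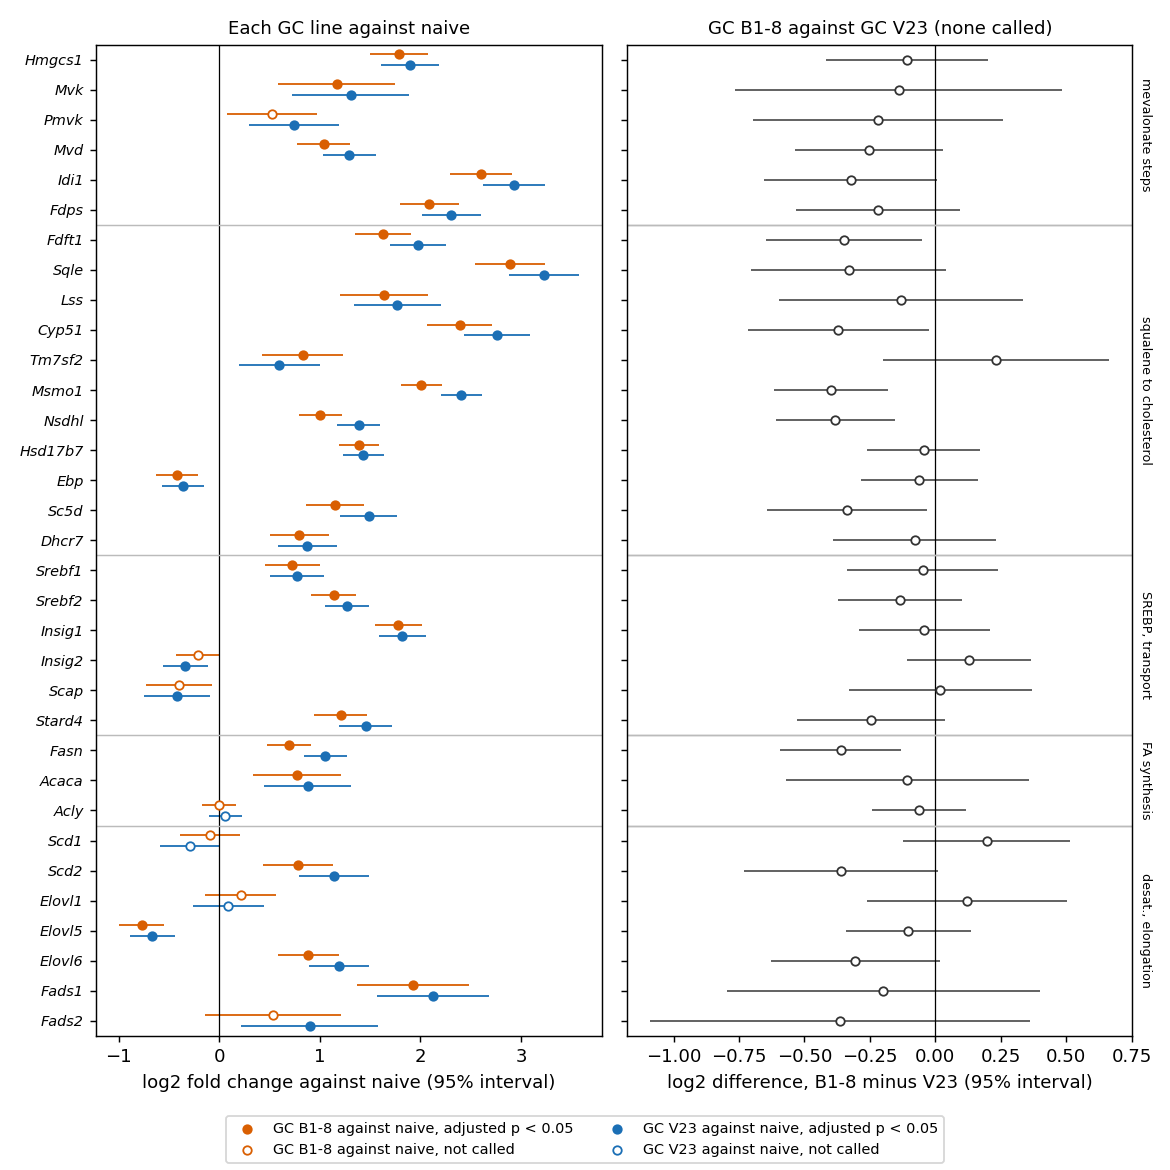
Log2 fold change of the 33 genes with 95% intervals, ordered by role; left, each GC line against naive (filled points passed the adjusted p threshold of 0.05), right, B1-8 minus V23 on its own scale. The points of the mevalonate steps lie between 0.53 and 2.93 in both lines, and no point in the right panel passed the threshold.

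Proliferation markers moved with the groups: 11 of 11 rose in both lines, and the mean log2 level of the list was 8.34 to 9.69 on the naive arrays, 11.65 to 11.79 on the B1-8 arrays and 11.94 to 12.04 on the V23 arrays. Neutrophil markers also moved with the groups, since 8 of 8 rose in both lines, with list means of 7.65 to 9.77, 11.91 to 11.98 and 11.14 to 11.93; S100a8 averaged 10.77, 14.08 and 13.68. None of the 8 was below log2 4 on every array of a group. The part of dividing cells and of neutrophil RNA in the results was not tested.

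Naive replicate 2 had the highest naive mean of GC markers (10.50, beside 9.17 to 9.86 on the others) and of proliferation markers. Naive replicate 4 had the highest naive means of neutrophil (9.77), macrophage (9.15) and T cell markers (7.86). Without these 2 arrays, 24 of the 33 genes rose and 2 fell in B1-8, and 25 rose and 1 fell in V23, with medians of 1.08 and 1.37. The excess of 3′ over 5′ signal for Actb, which grows with RNA degradation, was 1.46 ± 0.17 log2 units (SD, n = 4) in naive, 0.98 ± 0.20 (n = 3) in B1-8 and 0.78 ± 0.08 (n = 3) in V23, and its part in the results was not tested. Markers of the sorted cells followed the labels: 4 of 5 naive B cell markers fell in B1-8 and 5 of 5 in V23, and 6 of 7 GC B cell markers rose in both. Of 5 general B cell markers 0 rose, and 1 fell in B1-8 and 2 in V23. Pax5 fell by 1.14 in B1-8 (adjusted p = 0.0079) and by 1.51 in V23 (adjusted p = 0.00158). Cd79a differed by −0.25 in B1-8, not called (adjusted p = 0.242), and fell by 0.56 in V23 (adjusted p = 0.018). Cd79b, a B cell receptor component, was not called in either line and averaged 14.33 ± 0.10, 14.18 ± 0.10 and 14.08 ± 0.14 in the 3 groups.

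Macrophage markers were split, with 1 of 7 higher (Lyz2, also made by neutrophils) and 0 lower in B1-8 and 1 higher and 4 lower in V23; list means were 7.60 to 9.15, 7.75 to 8.29 and 7.22 to 7.35. C1qc, which marks macrophages, was below log2 4 on every V23 array. Plasma cell markers gave 1 of 5 higher (Jchain) and 1 lower (Irf4) in both lines, with list means of 9.64 to 10.01, 9.65 to 10.24 and 9.64 to 10.06. T cell markers gave 0 calls of 6 in B1-8 and 2 lower in V23, with list means of 6.97 to 7.86, 7.04 to 7.58 and 6.59 to 7.03.

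Promoter sequence was looked at because most of these genes moved the same way. RefSeq promoters of build GRCm38.p6 were at hand for 27 of the 34 genes, and the 250 bases before each start were searched on both strands. The sterol response element core TCACNCCA, the kind of site to which SREBPs bind, was found in 3 of 27 (11.1%), beside 4.20% of 27025 genes with a promoter and 4.09% of 13690 tested genes. All 3, Hmgcs1, Msmo1 and Srebf2, are among the 18 genes with a promoter that were higher in both lines. These are printed 5′ to 3′ on the gene's strand, with the match in capitals and 30 bases on each side, because they are the genes with both a call and a match. The windows are chr13:119690184-119690251 on the + strand for Hmgcs1, chr8:64733718-64733785 on the - strand for Msmo1 and chr15:82147077-82147144 on the + strand for Srebf2, and the matches begin 137, 177 and 162 bases before the start.
Hmgcs1: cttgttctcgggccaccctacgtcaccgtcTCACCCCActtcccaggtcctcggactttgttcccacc
Msmo1: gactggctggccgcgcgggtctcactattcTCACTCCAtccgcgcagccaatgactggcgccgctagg
Srebf2: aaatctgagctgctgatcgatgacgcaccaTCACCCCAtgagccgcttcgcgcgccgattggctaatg
The CCAAT box CCAAT, to which NF-Y binds, was in 21 of 27 promoters (77.8%), beside 37.5% of all genes with a promoter and 39.3% of those tested. It was in 16 of the 18 genes higher in both lines and in 5 of the 8 other tested genes of the list. The GC box GGGCGG, to which Sp1 binds, was in 22 of 27 (81.5%), beside 35.4% and 54.6%. It was in 15 of the same 18 genes and in 6 of the 8 others, so both boxes were frequent in both sets. The 8 others are not all genes without a rise, since they include Pmvk and Fads2, called higher in V23 alone. No motif is contained in another, though the end of TCACNCCA can overlap the start of CCAAT. A match describes the letters in this window, and a promoter without one says nothing about the factor.

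The mevalonate steps were higher as a group: 5 of 6 measured genes rose in B1-8 and 6 of 6 in V23, with median log2 fold changes of 1.48 and 1.60. The mean log2 level of the 6 genes was 8.93 to 9.07 on the naive arrays, 10.42 to 10.72 on the B1-8 arrays and 10.66 to 10.83 on the V23 arrays, so neither GC line overlapped naive. All values below are log2 signals of 1 probe set in order of replicate number, fold changes are log2 ± SE, and levels of different genes are not compared, since probe sets differ in response.

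Hmgcs1, which condenses acetyl-CoA units into HMG-CoA, read 11.07, 11.42, 11.11 and 11.27 on the naive arrays, 13.15, 12.99 and 12.87 on the B1-8 arrays and 13.27, 12.95 and 13.11 on the V23 arrays. Its fold change was 1.79 ± 0.13 in B1-8 (adjusted p = 2.85e-05) and 1.89 ± 0.13 in V23 (adjusted p = 1.46e-05). Every GC array was above every naive array, and the lines overlapped each other. The probe set used can share probes with related sequences; 3 of the other 4 Hmgcs1 probe sets gave 1.30 to 1.87 in B1-8 and 1.58 to 2.06 in V23, and the dimmest gave 0.45 and −0.01, not called.

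Mevalonate kinase, Mvk, read 7.72, 6.90, 6.80 and 7.44 in naive, 8.79, 8.33 and 8.02 in B1-8 and 8.53, 8.49 and 8.55 in V23. It rose by 1.17 ± 0.26 (adjusted p = 0.00758) and 1.31 ± 0.26 (adjusted p = 0.00373). Naive arrays spread by nearly a full log2 unit, yet all lay below the lowest GC array. Idi1, which interconverts the 5-carbon isoprenoid units, read 9.16, 9.51, 9.14 and 9.01 in naive, 11.97, 11.71 and 11.74 in B1-8 and 12.02, 12.15 and 12.23 in V23. This was the largest change among the mevalonate steps, 2.60 ± 0.14 in B1-8 (6.08-fold, adjusted p = 8.08e-06) and 2.93 ± 0.14 in V23 (7.62-fold, adjusted p = 3.41e-06). The 3 groups did not overlap, in the order naive, B1-8, V23.

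Farnesyl diphosphate synthase, Fdps, whose product feeds squalene, prenylation and dolichol, read 8.89, 9.34, 9.07 and 9.34 in naive, 11.26, 11.23 and 11.24 in B1-8 and 11.56, 11.50 and 11.32 in V23. It rose by 2.09 ± 0.13 (adjusted p = 1.71e-05) and 2.31 ± 0.13 (adjusted p = 7.67e-06), again with 3 separate groups. The B1-8 arrays differed among themselves by only a few hundredths. A dim second Fdps probe set, at a mean of 1.40, carried no call, and averaging both ended the B1-8 call (1.21, adjusted p = 0.143).

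The other 2 genes of these steps changed less. Mvd, which makes isopentenyl diphosphate, averaged 7.81 ± 0.09 (SD) in naive, 8.85 ± 0.19 in B1-8 and 9.10 ± 0.13 in V23, and rose by 1.04 (adjusted p = 0.000223) and 1.29 (adjusted p = 5.43e-05). Phosphomevalonate kinase, Pmvk, averaged 9.40 ± 0.27, 9.92 ± 0.27 and 10.14 ± 0.25, a difference of 0.53 in B1-8 that was not called (adjusted p = 0.0709) and a rise of 0.75 in V23 (adjusted p = 0.0159). The V23 call for Pmvk was lost without V23 replicate 1 (adjusted p = 0.0586) and without V23 replicate 3 (adjusted p = 0.0531).

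**Figure D2:**
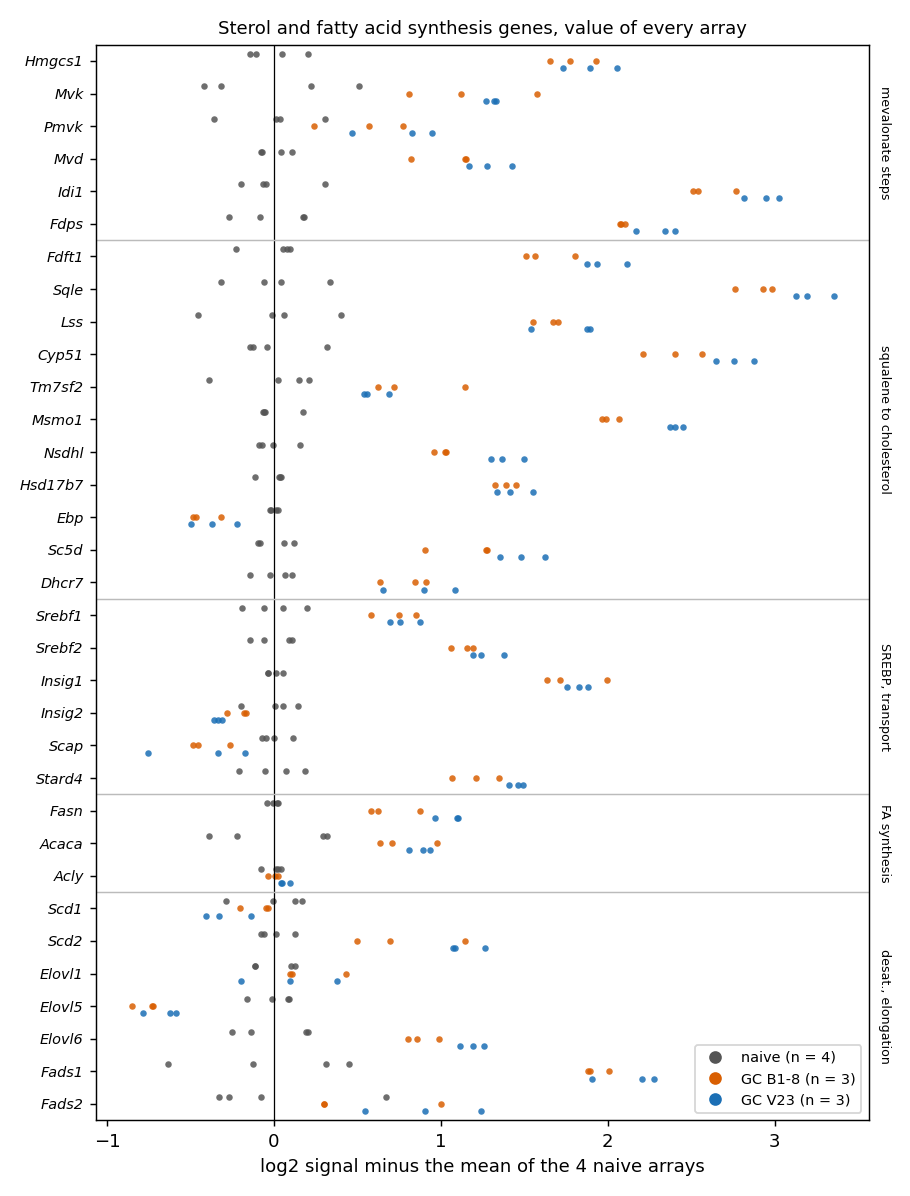
Log2 signal of each of the 33 genes minus the mean of its 4 naive arrays, 1 point per array coloured by group, in rows ordered by role (desat., desaturation). For Sqle, Idi1 and Cyp51 the GC points stand farthest right, and for Ebp and Elovl5 every GC point lies left of every naive point.

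From squalene to cholesterol, 10 of 11 genes rose and 1 fell in each line, with median fold changes of 1.39 in B1-8 and 1.49 in V23. The mean level of the 11 genes was 8.70, 8.89, 8.71 and 8.83 on the naive arrays, 10.19, 10.15 and 10.18 in B1-8 and 10.43, 10.36 and 10.35 in V23. The spread within a group was thus below 0.2 log2 units, and the 3 groups did not overlap. Naive replicate 4, with the most neutrophil signal of the naive arrays, was inside the range of the others for these 11 genes, but it was the highest naive array for the mevalonate steps (9.07, others 8.93 to 9.01), for the SREBP and transport genes (10.01, others 9.89 to 9.92) and for the mean of all 33 genes (9.49, others 9.33 to 9.47).

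Fdft1, or squalene synthase, commits farnesyl diphosphate to sterols. It read 8.02, 8.34, 8.33 and 8.31 in naive, 10.05, 9.76 and 9.81 in B1-8 and 10.36, 10.13 and 10.18 in V23. The rise was 1.63 ± 0.12 (adjusted p = 3.36e-05) and 1.97 ± 0.12 (adjusted p = 1.09e-05), and no group overlapped another. The brighter of the other Fdft1 probe sets gave 1.65 and 2.03.

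Squalene epoxidase, Sqle, which adds the first oxygen, read 8.39, 8.78, 8.13 and 8.49 in naive, 11.43, 11.21 and 11.37 in B1-8 and 11.80, 11.57 and 11.64 in V23. It had the largest fold change of all 33 genes in both lines, 2.89 ± 0.15 (7.43-fold, adjusted p = 8.51e-06) and 3.22 ± 0.15 (9.35-fold, adjusted p = 3.68e-06). Its groups did not overlap, and its highest naive array was more than 2 log2 units below its lowest GC array. By size of change it ranked in the top 1.50% of all genes tested in B1-8 and the top 1.34% in V23.

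Lanosterol demethylase, Cyp51, the first enzyme after lanosterol, read 8.52, 8.99, 8.54 and 8.63 in naive, 10.88, 11.07 and 11.24 in B1-8 and 11.32, 11.43 and 11.55 in V23. It rose by 2.39 ± 0.14 (adjusted p = 1.51e-05) and 2.76 ± 0.14 (adjusted p = 5.73e-06), with 3 separate groups. Its 2 other probe sets gave 2.08 and 2.83 in B1-8 and 2.33 and 2.88 in V23.

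The methylsterol oxidase Msmo1 read 9.39, 9.39, 9.39 and 9.62 in naive, 11.44, 11.42 and 11.52 in B1-8 and 11.82, 11.85 and 11.90 in V23. Its rise of 2.01 ± 0.09 (adjusted p = 4.36e-06) and 2.41 ± 0.09 (adjusted p = 1.56e-06) had one of the smallest errors of the set. The arrays of each GC line lay close together, and B1-8 was below V23 on every array.

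Of the remaining sterol enzymes, 6 rose in both lines. Lanosterol synthase, Lss, rose by 1.64 and 1.77, and its 2 other probe sets, which are dimmer, gave 0.48 and 1.07 in B1-8 and 0.76 and 0.34 in V23, none of them called. Hsd17b7 and Nsdhl, which act in removal of the methyl groups of lanosterol, rose by 1.39 and 1.01 in B1-8 and by 1.43 and 1.39 in V23. The sterol desaturase Sc5d rose by 1.15 and 1.49, and the reductase Dhcr7, which acts at the end of the pathway, by 0.80 and 0.88. The sterol reductase Tm7sf2 rose by 0.83 (adjusted p = 0.00658) and 0.60 (adjusted p = 0.0273). Its V23 call was lost without naive replicate 2 (adjusted p = 0.0515) and without V23 replicate 1, 2 or 3 (adjusted p = 0.0554, 0.0866 and 0.0617).

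Ebp, the sterol isomerase that acts before Sc5d, was the exception. It averaged 10.41 ± 0.02 in naive, 9.99 ± 0.09 in B1-8 and 10.05 ± 0.14 in V23 (SD). It fell by 0.42 ± 0.09 in B1-8 (adjusted p = 0.0073) and by 0.36 ± 0.09 in V23 (adjusted p = 0.0138), with every GC array below every naive array. The V23 call was lost without V23 replicate 3 (adjusted p = 0.0516) and with arrays centred on their medians (−0.23, adjusted p = 0.124).

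Among the SREBP genes and their sterol sensors, 4 of 6 rose in both lines. Insig1, the sterol-responsive inhibitor of Scap and itself a classic SREBP target, read 8.68, 8.60, 8.59 and 8.64 in naive, 10.34, 10.26 and 10.62 in B1-8 and 10.38, 10.51 and 10.46 in V23. It rose by 1.78 ± 0.10 (adjusted p = 1.24e-05) and 1.82 ± 0.10 (adjusted p = 7.67e-06). The naive arrays spanned less than 0.1 log2 units and lay far below the GC arrays, while the lines overlapped.

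Srebf2 read 9.84, 10.08, 9.93 and 10.10 in naive, 11.14, 11.05 and 11.18 in B1-8 and 11.37, 11.23 and 11.18 in V23, and rose by 1.14 ± 0.10 (adjusted p = 6.36e-05) and 1.27 ± 0.10 (adjusted p = 2.62e-05). Its second probe set gave 1.07 and 0.97. Srebf1 read 10.41, 10.28, 10.53 and 10.67 in naive, 11.33, 11.06 and 11.23 in B1-8 and 11.35, 11.23 and 11.17 in V23, and rose by 0.73 ± 0.12 (adjusted p = 0.00164) and 0.78 ± 0.12 (adjusted p = 0.000947). For both factors every GC array was above every naive array. Whether Srebf2 rose more than Srebf1 was not tested.

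Stard4, a carrier that moves cholesterol between membranes, read 9.44, 9.59, 9.72 and 9.83 in naive, 10.72, 10.86 and 11.00 in B1-8 and 11.14, 11.06 and 11.11 in V23. It rose by 1.21 ± 0.12 (adjusted p = 0.000104) and 1.46 ± 0.12 (adjusted p = 3.14e-05). The groups did not overlap, and its 2 other probe sets were called higher in both lines too, by 0.65 and 1.37 in B1-8 and 0.89 and 1.74 in V23.

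Scap and Insig2 lay on the other side. Scap read 10.82, 10.71, 10.64 and 10.66 in naive, 10.45, 10.25 and 10.22 in B1-8 and 10.54, 10.38 and 9.95 in V23. The difference of −0.40 ± 0.14 in B1-8 was not called (adjusted p = 0.0611), and the fall in V23 of 0.42 ± 0.14 passed narrowly (adjusted p = 0.0474). Every GC array lay below every naive array, but the V23 call was lost without any 1 of 9 arrays, V23 replicate 1 being the exception, with adjusted p of 0.0547 to 0.131. A dim second Scap probe set gave −2.85 and −2.06, both called.

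Insig2, the Insig protein that does not depend on SREBP in most cells, averaged 10.12 ± 0.14 in naive, 9.91 ± 0.06 in B1-8 and 9.78 ± 0.02 in V23. The B1-8 difference of −0.21 was not called (adjusted p = 0.136), and in V23 it fell by 0.34 (adjusted p = 0.0238). That call was lost without naive replicate 1, 2 or 4 (adjusted p = 0.0541, 0.0568 and 0.0506) and without V23 replicate 2 or 3 (adjusted p = 0.0645 and 0.0667). Its other probe sets gave −0.49 (adjusted p = 0.041) and −0.34 (not called, adjusted p = 0.0754) in B1-8. In V23 they gave −0.69 and −0.51, both called (adjusted p = 0.0078 and 0.0144).

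Of the 3 genes that make palmitate from citrate, 2 rose in both lines, with median fold changes of 0.69 and 0.88 over all 3. Fatty acid synthase, Fasn, read 9.81, 9.87, 9.84 and 9.87 in naive, 10.72, 10.43 and 10.47 in B1-8 and 10.95, 10.95 and 10.81 in V23. It rose by 0.69 ± 0.10 (adjusted p = 0.000667) and 1.06 ± 0.10 (adjusted p = 5.66e-05). The naive arrays were tightly placed and the 3 groups did not overlap.

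Acetyl-CoA carboxylase, Acaca, which makes the malonyl-CoA that Fasn uses, read 9.49, 8.95, 8.78 and 9.46 in naive, 10.15, 9.80 and 9.88 in B1-8 and 10.11, 9.98 and 10.06 in V23. It rose by 0.77 ± 0.19 (adjusted p = 0.0133) and 0.88 ± 0.19 (adjusted p = 0.00623). The naive spread was wide, but no naive array reached a GC array. Its B1-8 call was lost without B1-8 replicate 1 (0.67, adjusted p = 0.0534) and with the mean of its 2 probe sets (0.35, adjusted p = 0.137), of which the dimmer gave −0.07 and 0.39.

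ATP citrate lyase, Acly, the source of cytosolic acetyl-CoA, was not called: it averaged 12.55 ± 0.05 in naive, 12.55 ± 0.03 in B1-8 and 12.62 ± 0.03 in V23. The interval of the fold change ran from −0.17 to 0.17 in B1-8 and from −0.11 to 0.23 in V23. The probe set used can share probes with related sequences. The Acly probe sets disagreed, since 2 less bright ones, at means of 9.55 and 11.94, were called higher in both lines. The one at 9.55 rose by 0.75 in each line, and the one at 11.94 by 0.44 in B1-8 and 0.40 in V23. A very dim one, at a mean of 1.62, was called higher in B1-8 (3.81, adjusted p = 0.0429) and not in V23 (2.61, adjusted p = 0.13).

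Desaturation and elongation genes were mixed. In B1-8 3 of 7 rose and 1 fell, and in V23 4 rose and 1 fell, with medians of 0.53 and 0.90. Fads1, a desaturase of polyunsaturated fatty acids, read 7.13, 7.70, 6.62 and 7.56 in naive, 9.14, 9.26 and 9.15 in B1-8 and 9.16, 9.53 and 9.46 in V23. It rose by 1.93 ± 0.24 (adjusted p = 0.000433) and 2.13 ± 0.24 (adjusted p = 0.0002), with the naive arrays spread over more than 1 log2 unit and all below the GC arrays. A second Fads1 probe set gave 0.05 and 0.26, not called.

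Elovl6, which elongates saturated chains of the length that Fasn releases, read 7.54, 7.89, 7.43 and 7.87 in naive, 8.67, 8.49 and 8.54 in B1-8 and 8.94, 8.80 and 8.88 in V23. It rose by 0.88 ± 0.13 (adjusted p = 0.00106) and 1.19 ± 0.13 (adjusted p = 0.000169), and the groups did not overlap. The stearoyl-CoA desaturase Scd2 read 10.88, 10.70, 10.67 and 10.76 in naive, 11.45, 11.25 and 11.90 in B1-8 and 11.82, 11.84 and 12.02 in V23. It rose by 0.78 ± 0.15 (adjusted p = 0.00418) and 1.14 ± 0.15 (adjusted p = 0.00045). B1-8 replicate 3 reached the V23 arrays, and the other 2 B1-8 arrays lay between V23 and naive.

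Elovl5, which elongates polyunsaturated chains, fell in both lines. It read 12.26, 12.25, 12.16 and 12.01 in naive, 11.44, 11.32 and 11.44 in B1-8 and 11.58, 11.38 and 11.54 in V23. The fall was 0.77 ± 0.10 (adjusted p = 0.000445) and 0.67 ± 0.10 (adjusted p = 0.000784), and all GC arrays lay below all naive arrays. Its second probe set gave −0.62 and −0.63.

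Scd1, the second stearoyl-CoA desaturase here, averaged 13.47 ± 0.21, 13.37 ± 0.09 and 13.18 ± 0.14 in naive, B1-8 and V23, with differences of −0.09 and −0.29 that were not called (adjusted p = 0.634 and 0.12). Its other probe set leaned the opposite way, by 0.28 in each line, not called either (adjusted p = 0.187 and 0.176). Elovl1, which elongates very long saturated chains, differed by 0.21 and 0.09, also not called (adjusted p = 0.345 and 0.689). Fads2, the desaturase that opens the polyunsaturated pathway, averaged 6.96 ± 0.46, 7.50 ± 0.41 and 7.86 ± 0.35. Its difference of 0.53 in B1-8 was not called (adjusted p = 0.211), and its rise of 0.90 in V23 had an adjusted p of 0.0423, though naive replicate 4, at 7.64, overlapped the V23 arrays. That call was lost without any 1 of naive replicates 1, 2 or 3, B1-8 replicates 1 or 3, or V23 replicates 2 or 3 (adjusted p = 0.0533 to 0.141). A dimmer Fads2 probe set was called higher in both lines, by 3.25 and 3.58.

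Between the 2 GC lines no member was called: of 17204 genes, 4 passed (0.0233%), 1 higher in B1-8 (0.00581%) and 3 lower (0.0174%). At an unadjusted p under 0.05, 6 of the 33 were lower and 0 higher in B1-8 than in V23, where 2.94% of all genes were lower and 4.78% higher. The fitted difference, B1-8 minus V23, was below 0 for 28 of 33 genes and above 0 for 5, where 8757 of all 17204 genes were above 0. Its median over the 33 genes was −0.14, beside 0.00 over all genes tested. Arrays did not overlap for 14 genes with B1-8 lower (background 6.63%) and for 1, Insig2, with B1-8 higher (background 7.07%).

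The 5 genes with the smallest p were Msmo1, Nsdhl, Fasn, Fdft1 and Sc5d, and none passed adjustment. For Msmo1, whose arrays are given above, B1-8 minus V23 was −0.40 (95% interval −0.62 to −0.18, adjusted p = 0.388). Nsdhl read 9.58, 9.83, 9.60 and 9.67 in naive, 10.70, 10.63 and 10.70 in B1-8 and 11.04, 10.97 and 11.17 in V23, a difference between the lines of −0.38 (−0.61 to −0.15, adjusted p = 0.454). All 3 of its B1-8 arrays were below all 3 V23 arrays. For Fasn the difference was −0.36 (−0.59 to −0.13, adjusted p = 0.489), and for Fdft1 it was −0.35 (−0.65 to −0.05, adjusted p = 0.589).

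Sc5d read 8.87, 9.03, 9.09 and 8.89 in naive, 10.24, 9.88 and 10.24 in B1-8 and 10.60, 10.33 and 10.45 in V23, a difference between the lines of −0.34 (−0.64 to −0.03, adjusted p = 0.615). All 5 of these genes were higher than naive in both lines. At the other end, Tm7sf2 had the largest positive difference, 0.23 (−0.20 to 0.66, adjusted p = 0.816), and Insig1 was among the closest, −0.04 (−0.29 to 0.21, adjusted p = 0.961). Proliferation markers moved the same way as these genes, with 11 of 11 fitted below 0, a median of −0.25 and 0 calls. Other marker lists were shifted the opposite way, also with 0 calls: 7 of 7 macrophage markers were fitted above 0 (median 0.43), 5 of 6 T cell markers (0.65), 7 of 8 neutrophil markers (0.40) and 5 of 5 B cell markers (0.18). The 3′ excess of Actb averaged 0.98 in B1-8 and 0.78 in V23, but the arrays of the lines overlapped (0.81 to 1.19 and 0.71 to 0.87). The part of these in the difference was not tested.

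**Figure D3:**
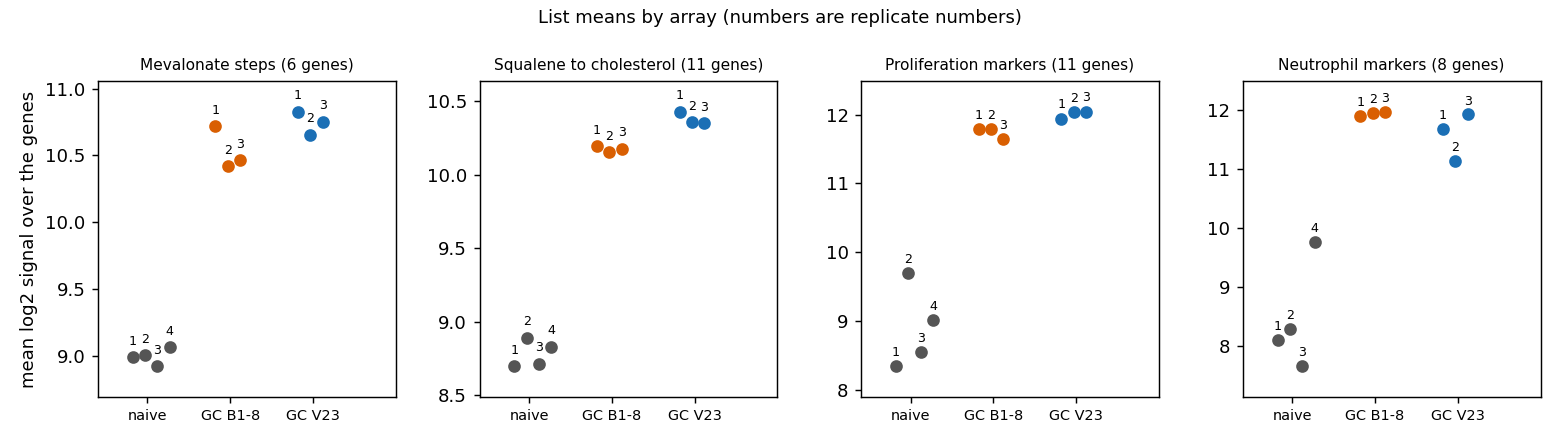
Mean log2 level of the mevalonate steps, the squalene to cholesterol genes, the proliferation markers and the neutrophil markers on each of the 10 arrays, by group, each panel on its own axis and each point numbered by replicate. The squalene to cholesterol genes lie at 8.70 to 8.89 on naive arrays, 10.15 to 10.19 on B1-8 arrays and 10.35 to 10.43 on V23 arrays, and naive replicate 4 stands above the other naive arrays for neutrophil markers.

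Genes around the pathway were read from lists of their own, against the background of all genes tested, of which 16.4% rose and 17.3% fell in B1-8 and 18.2% rose and 19.7% fell in V23. Of 6 measured LXR and cholesterol export genes, 0 rose and 3 fell in each line, with median fold changes of −0.43 in B1-8 and −0.73 in V23. Abca1, the transporter that loads cholesterol onto apolipoprotein, fell from 12.83 ± 0.10 (SD, n = 4) in naive to 10.98 ± 0.41 (n = 3) in B1-8 and 10.74 ± 0.05 (n = 3) in V23, changes of −1.85 (adjusted p = 9.29e-05) and −2.09 (adjusted p = 3.74e-05). Abcg1, a second sterol exporter, fell by 1.33 and 1.50, and Mylip, an LXR-induced ubiquitin ligase that removes lipoprotein receptors, by 0.93 and 1.18. The acyltransferase Lpcat3 differed by 0.08 and 0.29, not called.

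Of 5 enzymes that make or modify oxysterols, 1 fell in B1-8 and 2 in V23, and 0 rose. Cyp27a1, a mitochondrial sterol hydroxylase, fell by 2.02 in B1-8 (adjusted p = 0.000269) and fell by 1.96 in V23 (adjusted p = 0.000248). Hsd3b7, which converts oxysterols toward bile acids, gave −0.28 in B1-8 (adjusted p = 0.0934) and fell by 0.35 in V23 (adjusted p = 0.0364). Ch25h, which makes the oxysterol that guides B cells in follicles after further conversion, differed by 0.19 and −0.58, and Cyp46a1 by −0.50 and −0.58, none of them called.

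Uptake, lysosomal release and storage genes gave 1 higher and 3 lower of 13 in B1-8 and 2 higher and 6 lower in V23, with medians of −0.21 and −0.51. The lysosomal cholesterol exporters Npc2 and Npc1 fell by 1.01 and 0.81 in B1-8 and by 1.18 and 0.90 in V23. Lipa, the lysosomal acid lipase, fell by 0.83 and 0.82. Dgat1, which makes triglyceride for storage, gave −0.55 in B1-8 (adjusted p = 0.0646) and fell by 1.25 in V23 (adjusted p = 0.00119). Lrp8 went the other way, rising by 2.30 in B1-8 (adjusted p = 0.0445) and 2.38 in V23 (adjusted p = 0.0354). Its naive level was low and spread widely, 5.10 ± 1.61 (SD). Scarb1 gave 0.52 in B1-8, not called (adjusted p = 0.0533), and rose by 0.95 in V23 (adjusted p = 0.00301).

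Genes that process or degrade SREBP and its partners were split, with 2 higher and 3 lower of 10 in B1-8 and 2 higher and 4 lower in V23. Fbxw7, the ubiquitin ligase subunit that marks nuclear SREBP among other proteins, rose by 1.45 and 1.40, and Tmem97, an endoplasmic reticulum protein that binds Npc1, by 1.50 and 1.69. Pgrmc1, a heme protein that binds sterol-metabolising cytochromes, fell by 0.74 and 0.75, and Erlin2, of the endoplasmic reticulum degradation machinery, by 0.50 and 0.65.

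The branches that leave the mevalonate pathway for ubiquinone, dolichol and prenylation gave 1 higher and 4 lower of 12 in B1-8 and 2 higher and 4 lower in V23, with medians of −0.13 and −0.18. Coq2, of ubiquinone synthesis, fell by 0.99 and 1.09. Rabggta, a subunit of the enzyme that prenylates Rab proteins, fell by 0.77 and 0.92, Nus1, of dolichol synthesis, by 0.65 and 0.60, and Ggps1, which makes the geranylgeranyl donor from the product of Fdps, by 0.70 and 0.79. Dhdds, the partner of Nus1 in dolichol synthesis, rose by 0.89 (adjusted p = 0.00288) and 0.94 (adjusted p = 0.00178). In all 5 of 12 genes were called in B1-8 and 6 of 12 in V23, not far from the 33.7% and 37.9% of all genes.

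Genes that supply or activate fatty acids gave 6 higher and 1 lower of 25 in B1-8 and 7 higher and 3 lower in V23, with medians of 0.22 and 0.37. The 7 calls of 25 in B1-8 and 10 of 25 in V23 are near the 33.7% and 37.9% of all genes, so the counts do not set this list apart. The acyl-CoA synthetase Acsl3 rose by 1.02 and 1.07, and Slc25a1, the mitochondrial citrate carrier that precedes Acly, by 0.89 and 1.09. Cyb5r3, which passes electrons to desaturases, rose by 0.92 and 0.70, and Hsd17b12, a reductase of chain elongation, by 0.42 and 0.43. Hacd3, a dehydratase of the same elongation cycle, fell by 0.77 in B1-8 (adjusted p = 0.00643) and fell by 0.64 in V23 (adjusted p = 0.0142).

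**Figure D4:**
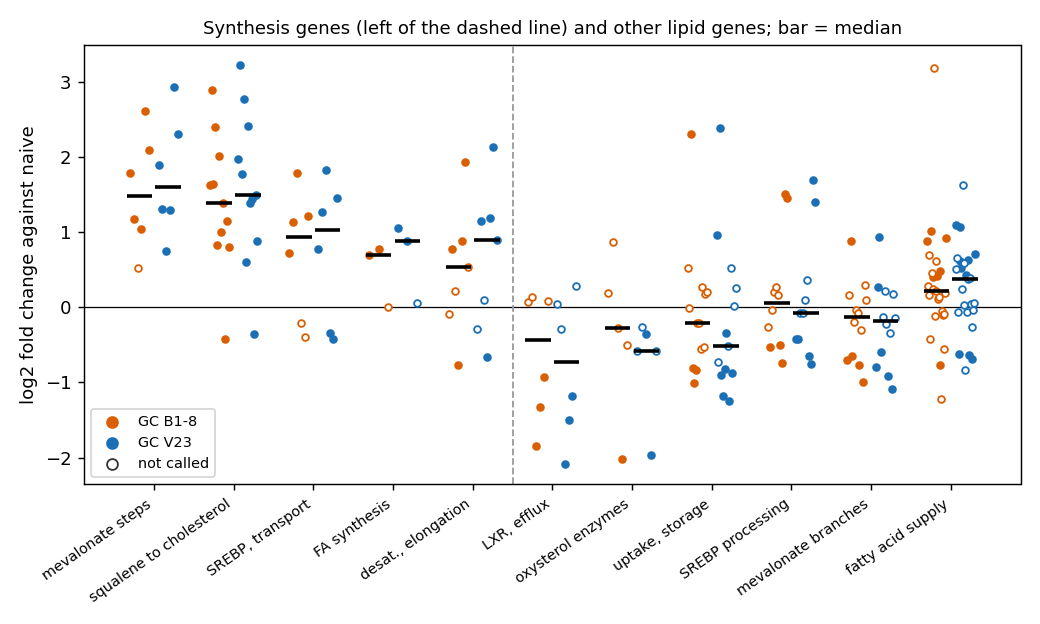
Log2 fold change of each gene against naive for both GC lines, by role group (left of the dashed line) and by surrounding list (right), with filled points for genes past the adjusted p threshold of 0.05 and bars at the medians. Among LXR and export genes the called points all lie below 0, at −2.09 to −0.93.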

How the data were processed

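RNA of 10 samples of sorted B cells was hybridized to 1 Affymetrix mouse whole-genome array each. The values are log2 probe set signals as deposited by the authors, and per the submitters' processing notes they were made with GCRMA (version not given). GCRMA output would show a floor, and these values show none; the mean unlogged signal after trimming 2% at each end was nearly equal on all arrays (499.85 to 499.87), as in MAS5 scaling to a target. They were used unchanged. Of 45101 probe sets, 34958 had 1 symbol, 932 several and 9211 none in the platform annotation. For each symbol the probe set with the highest mean was kept, and 17204 of 18194 genes had log2 above 4 on at least 3 arrays.

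Groups came from the labels. The tests were two-sided and used limma 3.58.1 (R 4.3.3) in 1 model of 3 group means over 10 arrays without intensity trend, with Benjamini-Hochberg adjustment over all genes tested (threshold 0.05). The labels give no scan date or other batch. On simulated data with 200 of 17204 genes changed by a log2 size of 2, 69.5% were recovered in the B1-8 comparison and 71% in the V23 comparison. In the data far more genes were called, 33.7% and 37.9%, and the adjustment depends on that share. The recovered shares therefore do not give the share of such changes found in the data. Figures and promoter searches used Python 3.11.15, pandas 2.3.3 and matplotlib 3.10.9. Alternatives were another filter, probe set summary, normalization, floor, moderation, sample choice, a replicate block and each array left out. The labels do not say whether same-numbered arrays belong together. Deviations of same-numbered arrays from their group means correlated at −0.02 to 0.07 over all genes tested. Differently numbered arrays were not compared, so a shared replicate effect was not tested.

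The genes, the other lists and the tests were chosen with earlier results of these data known. All 33 measured genes could be named. The value on every array is given for up to 4 genes per role that were called in both lines with the largest change, for Srebf1, Srebf2, Insig1, Scap, Fasn and Hmgcs1, and for the 5 smallest p between the lines; from each other list up to 4 genes with the smallest p in V23 against naive were named. S100a8, Dhdds, Hacd3, Lrp8 and Scarb1 were chosen after their values were seen. Motifs were searched in RefSeq promoters.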

Additional observations from a re-analysis of the deposited data

Results flagged for a closer look

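In 3 of 33 genes 1 naive array stood apart from the other 3 by Dixon's test at the 95% level, which chance does in about 1 group of 20. Fdft1 was lowest on naive replicate 1, at log2 8.02, where the others read 8.31 to 8.34. Msmo1 was highest on naive replicate 4, at 9.62, where the others read 9.39. Hsd17b7 was lowest on naive replicate 2, at 7.75, where the others read 7.89 to 7.91. These gaps are small beside the rises of the same genes in GC cells, the smallest of which is 1.39.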

How the results depend on the processing

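Of the genes called in the main setting, 24 of 26 in B1-8 and 24 of 30 in V23 kept direction and call under all 19 alternatives. The count of higher genes ranged from 23 to 25 in B1-8 and from 23 to 26 in V23, and the median over the 33 measured genes, called or not, from 0.96 to 1.09 and from 1.06 to 1.44. The lower genes depended more on the setting. In B1-8, 4 were lower with the mean of all probe sets of a gene, instead of 2, as Scap and Insig2 joined. Across settings B1-8 calls also appeared for Pmvk (5 settings, adjusted p 0.0208 to 0.0486), Scap (5, 0.00471 to 0.042) and Fads2 (2, 0.0366 and 0.0489). In V23, Scd1 was called lower with quantile normalization (adjusted p = 0.0346) and without naive replicate 4 (adjusted p = 0.0281). It was also called lower with an intensity trend and robust moderation (adjusted p = 0.0332), where 5 genes were lower in V23. In V23, where 4 were lower in the main setting, median centring left 1. Leaving out naive replicates 2 and 4, an alternative chosen after seeing the data, also left 1. Leaving out 1 array in turn gave 1 to 4, with 1 without V23 replicate 3 and 2 without naive replicate 1, naive replicate 2 or V23 replicate 2.

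Whether replicate numbers pair the samples is not given in the labels. With the replicate block, 25 genes were higher and 2 lower in B1-8, and 26 were higher and 2 lower in V23, where Ebp and Insig2 were no longer called, and 0 genes of all tested differed between the lines.

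Reversed signs were seen in uncalled values. Acly in B1-8 against naive was 0.69 with the mean of all probe sets, 0.066 with median centring and −0.029 to 0.015 with 1 array left out; in V23 it was −0.12 with quantile normalization. Scd1 in B1-8 was 0.094 with the mean of all probe sets. Elovl1 in V23 was −0.052 to 0.24 with 1 array left out. Between the lines, Fdft1 was 0.17 and Sc5d 0.14 with the mean of all probe sets. For Fdft1, Sc5d and Acly the mean brings in dim probe sets among brighter ones, which for Acly average 11.94 and 9.55. For Scd1 the mean brings in a second probe set that averages 9.84. The cause of the sign changes was not tested.

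Between the lines 1 gene of all tested was higher and 3 lower in B1-8. Both counts were 0 with the mean of all probe sets, median centring, the 2 lines fitted alone, or naive replicates 2 and 4 left out. They were 2 and 2 with values below log2 4 raised to it, 12 and 5 with an intensity trend and robust moderation, and 0 to 9 higher and 0 to 2 lower with 1 array left out. The member count was 0 under all of these. The number of arrays limits the precision, and the median residual SD was 0.889 for genes below log2 6 and 0.118 above log2 10.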
